A study of Homo sapiens with 15 samples.

Results

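MG-63 cells on uncoated titanium were compared between 24 h and 4 h after seeding. The MG-63 line comes from a human osteosarcoma and resembles osteoblasts. The cells grew in DMEM with fetal calf serum on planar silicon pieces sputtered with titanium (Ti-Ref), which served as the control surface of a study on Ti-TMS-PEI, titanium coated with an amine-rich polymer. Members were chosen by their labels: 7 of the 15 arrays hold Ti-Ref RNA, 4 of them after 4 h (arrays A, B, C and D) and 3 after 24 h (arrays A, B and C). The other 8 arrays hold RNA from Ti-TMS-PEI, 4 at each time, and enter only the normalization and a comparison of the change between the surfaces.

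Each sample was hybridised to a Clariom S array, on which a transcript cluster gathers the probes of a gene. Before lysis the titanium pieces had been moved to fresh wells, so only adherent cells gave RNA. A further Ti-Ref array of 24 h was excluded in the study because of its labelling controls and was not analysed here. In the deposited table the median log2 signal lay between 5.79 and 5.86 on the arrays of 4 h and between 6.71 and 6.79 on those of 24 h, on both surfaces. The arrays of each time thus appear to have been normalized as a set of their own, which the study's methods do not state, and all 15 arrays were brought to the same distribution by quantile normalization before any level was compared. Time, the set of arrays and their first normalization cannot be told apart, and a change common to all genes cannot be seen after this step. The study's methods describe the samples of a group as coming from independent experiments but also speak of technical replicates, and the labels state neither. SD, n and p measure the spread between these arrays, which may be technical.

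As background, cells that have been detached, replated and given serum first pass through an early phase, in which growth factor and stress signals through ERK and NF-kappaB switch on immediate early genes, cytokines and the feedback inhibitors of the same pathways. Later, attached cells spread, lay down matrix and return to growth. MG-63 cells are known to make collagen I and to answer to vitamin D, while they express late markers of mature osteoblasts weakly.

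The arrays of both times were clearly separated. Along the first principal component, which took up 63.0% of the variance between the 7 arrays, lay the arrays of 4 h (-38.8 to -30.9) and, apart from them, those of 24 h (46.6 to 47.9). To be called, a transcript cluster had to change by over 1.5-fold and to have p-values under 0.05 in limma, both unadjusted and after Benjamini-Hochberg adjustment over all 21448 transcript clusters. By this rule 2602 were higher at 24 h and 2407 were lower, which is 12.1% and 11.2% of all, or 23.4% in either direction. The arrays of both times did not overlap, in the direction of higher at 24 h, for 22.7% of all transcript clusters, and in the direction of lower for 21.4%. The median log2 fold change was 0.01 and the median absolute change 0.33, beside a median SD between arrays of 0.21 at 4 h and 0.14 at 24 h. A change over 4-fold was called for 35 transcript clusters that rose and 72 that fell. Calls were fewest among dim signals: 11.6% of the transcript clusters with a mean log2 signal up to 4 were called, against 33.3% of those between 6 and 8.

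The split of calls between the directions depended on the scaling. With arrays centred on their medians instead, 2023 were higher and 4639 lower, and with arrays centred and scaled to the same spread, 1832 were higher and 5623 lower, so that higher calls made up 30.4% and 24.6% of all calls instead of 51.9%. The median of all transcript clusters then lay at -0.19 and -0.20. With the deposited values as they stand, in which the times keep different medians, 12043 were higher and 310 lower (97.5% higher), with a median of 0.68. Counts under centring, or centring and scaling, are given beside the lists in which higher calls outnumbered lower calls after quantile normalization but not there. The share of each list that was called is to be read beside those over all transcript clusters, 12.1% higher and 11.2% lower.

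**Figure D1:**
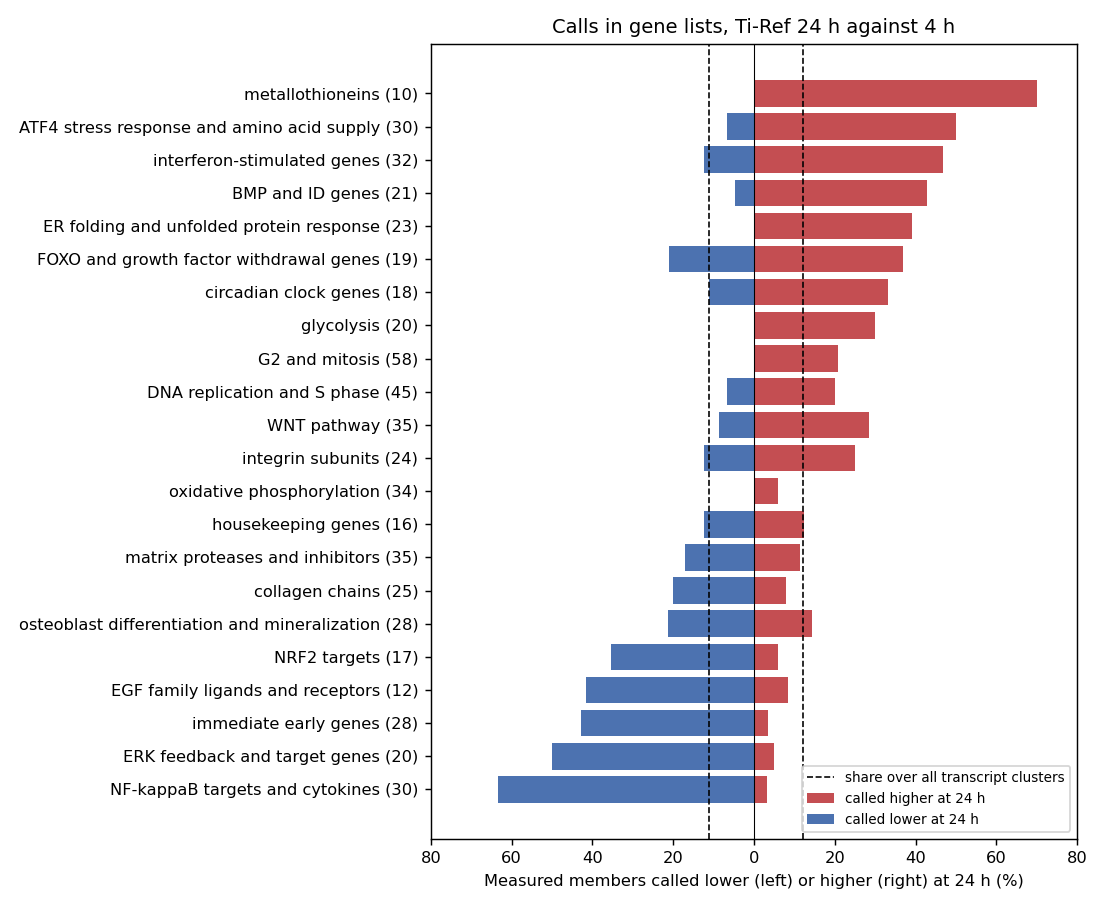
Share of the measured members of 22 gene lists called lower (blue, left) or higher (red, right) at 24 h against 4 h on Ti-Ref, in percent, with the number of measured members in brackets and dashed lines at the shares over all transcript clusters (11.2% lower, 12.1% higher). Cytokine, ERK feedback and immediate early genes lie far to the left, and metallothioneins, ATF4 genes and interferon-stimulated genes far to the right.

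As examples, 3 upstream regions of 250 bases are given. They belong to a gene that rose with the ATF4 group, a cytokine gene that fell and an interferon-stimulated gene that rose. They are RefSeq sequences of GRCh38.p14, written 5′ to 3′ on the strand of the gene, and capitals mark matches on either strand to the letters TGATGNAA (ATF4 response), GGGNNTTTC (NF-kappaB) and TTTCNNTTT (interferon-stimulated response), in this order. These letters were chosen after the changes had been seen. The regions are chr15:40953221-40953470, chr7:22726950-22727199 and chr1:78620198-78620447, all on the plus strand.
CHAC1: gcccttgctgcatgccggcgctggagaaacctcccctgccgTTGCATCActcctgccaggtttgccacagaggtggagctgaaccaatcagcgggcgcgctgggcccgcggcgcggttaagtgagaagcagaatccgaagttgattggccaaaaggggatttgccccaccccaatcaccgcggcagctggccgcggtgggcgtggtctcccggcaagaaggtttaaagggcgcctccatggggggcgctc
IL6: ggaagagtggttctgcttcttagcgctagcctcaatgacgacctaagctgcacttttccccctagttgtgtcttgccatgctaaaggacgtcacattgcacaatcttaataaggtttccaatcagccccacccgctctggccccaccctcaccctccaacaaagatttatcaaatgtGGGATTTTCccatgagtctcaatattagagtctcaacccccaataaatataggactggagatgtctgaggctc
IFI44L: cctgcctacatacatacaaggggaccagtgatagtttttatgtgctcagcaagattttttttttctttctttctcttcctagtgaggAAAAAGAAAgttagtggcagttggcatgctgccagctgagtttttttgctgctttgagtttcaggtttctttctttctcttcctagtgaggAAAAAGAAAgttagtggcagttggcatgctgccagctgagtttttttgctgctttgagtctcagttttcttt
The match in CHAC1 begins 209 bases before the annotated start, that in IL6 begins 73 bases before it, and the IFI44L region holds the same match at 163 and at 72 bases before the start, within a repeated stretch. A match is a description of the letters and not evidence of binding.

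Over windows from 250 bases before to 50 bases after the start, 14250 measured genes had a promoter sequence. The ATF4 letters were found in 5 of 25 promoters of the ATF4 list (20%) against 2.52% of all, the NF-kappaB letters in 11 of 24 promoters of the NF-kappaB and cytokine list (45.8%) against 4.77%, and the interferon letters in 20 of 26 promoters of interferon-stimulated genes (76.9%) against 8.46%. The promoters of all called genes differed less from all promoters. The NF-kappaB letters were in 4.26% of the promoters of genes called higher and 6.11% of those called lower, the AP-1 letters (TGACTCA or TGAGTCA) in 3.42% and 4.27% against 3.65% of all, and the CRE (TGACGTCA) in 2.24% and 2.58% against 2.62%. Likewise, the E-box CACGTG was in 8.80% and 8.14% against 8.69%, and CCAAT in 36.0% and 33.7% against 36.4%. The interferon letters were in 7.79% and 8.62% against 8.46%, and the ATF4 letters in 2.63% and 2.31% against 2.52%. Of the mitotic genes, 36 of 50 promoters (72%) held TTTGAA or TTCGAA, letters of the cell cycle homology element, against 13.4% of all. Of the S phase genes 20 of 38 (52.6%) held TTTCGCGC, TTTGGCGC or TTTCCCGC, letters of E2F sites, against 3.77%. The lists gather genes known for a factor or phase, and all measured members were counted, called or not. Their shares therefore do not depend on the changes and say nothing about them.

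Cytokine genes and other targets of NF-kappaB were the group that fell most often. Of 30 measured members, 19 (63.3%) were lower at 24 h and 1 was higher, beside 11.2% and 12.1% of all transcript clusters, and the median log2 fold change was -0.84 beside 0.01 over all. LIF, a cytokine of the interleukin 6 family, had log2 signals of 13.45, 13.71, 13.72 and 13.32 at 4 h and of 9.40, 9.59 and 9.46 at 24 h. All arrays of 24 h lay far below all arrays of 4 h, and LIF fell by 4.07 ± 0.13 on the log2 scale (SE, 16.8-fold, limma adjusted p = 3.7e-06). CCL2, which attracts monocytes, went from 15.03, 15.19, 15.15 and 15.08 to 11.42, 11.65 and 11.34, again without overlap, and fell by 3.64 ± 0.11 (12.5-fold, adjusted p = 3.7e-06).

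The interleukins moved the same way. IL1B, an inflammatory cytokine, had log2 signals of 13.11, 13.36, 13.43 and 13.11 at 4 h and of 10.23, 10.67 and 9.74 at 24 h. IL6, whose promoter is shown above, went from 8.85, 9.03, 9.19 and 8.99 to 5.90, 6.55 and 5.57. In both genes the arrays of 24 h lay below those of 4 h and array B was the highest of 24 h, and the changes were -3.04 ± 0.21 (IL1B, adjusted p = 6.53e-05) and -3.01 ± 0.22 (IL6, adjusted p = 7.59e-05). PTGS2, the inducible cyclooxygenase of prostaglandin synthesis, fell by 2.60 ± 0.13 (6.06-fold, adjusted p = 2.39e-05), from a mean of 11.83 to 9.24. Members without a call include NFKBIA, the inhibitor of NF-kappaB, at -0.22 ± 0.11 (adjusted p = 0.168), and the chemokine CXCL1 at -0.21 ± 0.21 (adjusted p = 0.462), and for both the arrays of the times overlapped. CSF3, the granulocyte growth factor, was the only member called higher, at 0.64 ± 0.16 with log2 signals of 2.90 to 3.44 at 4 h and 3.65 to 4.07 at 24 h, near the dim end of the array. Without 4 h array B or 24 h array C it was not called (0.55 and 0.52).

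Of 28 immediate early genes, 12 fell (42.9%) and 1 rose (3.57%), with a median of -0.50. NR4A1, an orphan nuclear receptor switched on within minutes by many stimuli, had log2 signals of 9.90, 10.36, 10.19 and 10.10 at 4 h and of 7.33, 7.15 and 7.60 at 24 h, without overlap, and fell by 2.78 ± 0.15 (6.86-fold, adjusted p = 3.02e-05). The AP-1 subunits FOSB and FOS (-2.24 ± 0.10 and -1.32 ± 0.12), the stress response gene IER3 (-1.73 ± 0.12) and EGR3, a zinc finger factor of this class (-1.51 ± 0.21), also fell. FOSB, FOS and EGR3 had 24 h signals between 3.87 and 4.43, near the dim end of the array, whereas IER3 was still at 13.88 to 14.06. KLF2 was called higher (0.63 ± 0.20, adjusted p = 0.0346) although its arrays overlapped. It lost the call without 4 h array A, B or D and without 24 h array A or B, with values from 0.47 to 0.65. ATF3, a stress-induced factor of the CREB family, was not called (-0.83 ± 0.35, adjusted p = 0.0963), and its 4 h array C, at 6.55, lay apart from the others at 4.96 to 5.27.

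Among 20 targets and feedback inhibitors of ERK signaling, 10 fell (50%) and 1 rose (5%), with a median of -0.62. The lists share members, so their counts are not independent: LIF, described above, had the largest fall here too, and HBEGF is also on the EGF list. The phosphatases DUSP5 and DUSP6, which switch ERK off, fell by 2.38 ± 0.16 (5.19-fold) and 1.40 ± 0.13 (2.64-fold), and the Ras pathway inhibitor SPRED1 by 1.06 ± 0.11. The DUSP6 signal was tight at 4 h, between 13.19 and 13.29, and lower on all arrays of 24 h, between 11.55 and 12.06. The only member that rose was ETV5, an ETS factor induced by growth factors, which went from 11.51, 11.65, 11.64 and 11.92 to 13.03, 13.30 and 13.17 (1.49 ± 0.13, adjusted p = 0.00016). SPRY2, another inhibitor, and the receptor EPHA2 changed less than 1.5-fold, at -0.51 ± 0.13 and 0.45 ± 0.13, and SPRY2 passed without 24 h array A (-0.59).

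The EGF family held changes in both directions. Of 12 ligands and receptors, 5 fell (41.7%) and 1 rose (8.33%), with a median of -0.41. TGFA, a ligand of the EGF receptor, rose from signals of 3.31 to 3.79 to signals of 5.12 to 5.77 (1.98 ± 0.19, adjusted p = 0.000215). The neuregulins NRG2 and NRG1 fell by 1.10 ± 0.12 and 1.03 ± 0.16, and the EGF receptor ligands EREG and HBEGF fell by 0.83 ± 0.19 and 0.76 ± 0.14. EGFR itself differed by 0.10 ± 0.12 with overlapping arrays (adjusted p = 0.562).

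The largest falls among named genes came from several families, and transcript clusters without a gene symbol, whose lowest change was -3.985, were not ranked. PDE3A, a phosphodiesterase that breaks down cyclic AMP, fell furthest: its log2 signals were 9.09, 8.66, 8.72 and 9.01 at 4 h and 4.69, 4.83 and 3.83 at 24 h (-4.42 ± 0.24, 21.4-fold, adjusted p = 3.02e-05). CMKLR1, the receptor of the chemoattractant chemerin, was bright at 4 h (12.43 to 12.61) and lay between 7.94 and 8.58 at 24 h, a change of -4.19 ± 0.16 (18.2-fold). NFATC2, a calcium-dependent transcription factor, fell by 3.85 ± 0.31 although its 4 h arrays were spread from 8.22 to 9.62.

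The remaining falls among the 15 largest of named genes ran from 7.06-fold to 12.4-fold. They include the small GTPase RAB7B (-3.63 ± 0.17), the zinc finger factor GLIS3 (-3.33 ± 0.22), the small GTPase RRAD (-3.12 ± 0.19) and the sphingosine 1-phosphate receptor S1PR2 (-3.05 ± 0.11). The transcription factors ZHX2 (-2.90 ± 0.18), FOXC2 (-2.83 ± 0.16) and HES1 (-2.82 ± 0.11) and the non-coding transcript LINC00260 (-2.83 ± 0.14) complete the set with LIF, CCL2, IL1B and IL6. HES1, a repressor downstream of Notch, was at 10.67 to 10.78 on the 4 h arrays and at 7.77 to 8.06 on the 24 h arrays. None of these genes had overlapping arrays, which the rule for naming them required.

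**Figure D2:**
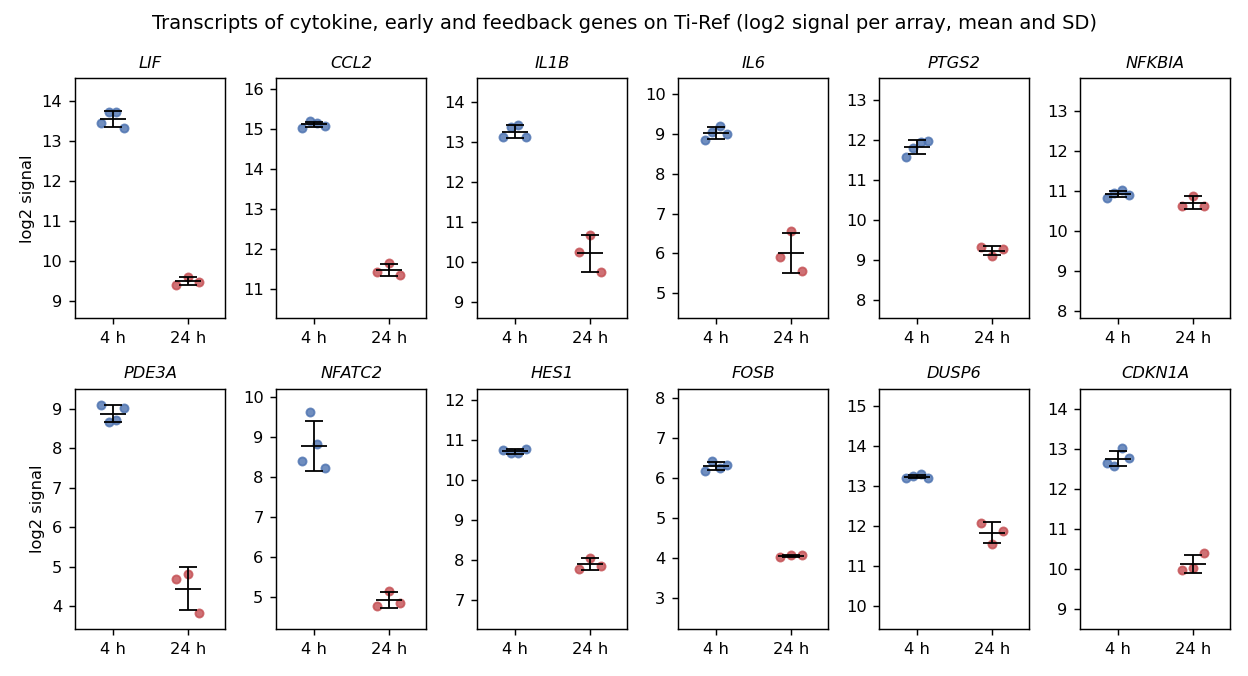
Log2 signal on each array (4 points at 4 h in blue, 3 at 24 h in red) with mean and SD for 12 genes of the cytokine, immediate early and feedback groups and of the largest falls. LIF, CCL2 and PDE3A change by -4.42 to -3.64, while the arrays of NFKBIA overlap.

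Genes of the ATF4 stress response and of amino acid supply were the group with the largest single rise. ATF4 is a transcription factor whose protein is made when the kinase arm of the integrated stress response is active, and its targets include enzymes and transporters of amino acids. Of 30 members 15 were higher (50%) and 2 were lower (6.67%), with a median of 0.54. CHAC1, which degrades glutathione and is a target of ATF4, had log2 signals of 5.05, 4.90, 5.27 and 5.31 at 4 h and of 9.44, 9.51 and 9.62 at 24 h. The groups were far apart and tight, and the rise of 4.39 ± 0.13 (21.0-fold, adjusted p = 3.7e-06) was the largest of all named genes. DDIT4, an inhibitor of mTORC1, followed with signals of 7.5 to 7.98 at 4 h and 10.60 to 10.77 at 24 h (2.91 ± 0.14, 7.49-fold).

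Enzymes of amino acid synthesis changed less. PSPH, the last step of serine synthesis, rose by 1.40 ± 0.15 and the asparagine synthetase ASNS by 1.20 ± 0.13, each without overlap between the times. ATF4 itself was at 12.86 to 13.05 at 4 h and at 13.56 to 13.63 at 24 h (0.62 ± 0.10, adjusted p = 0.00221). Its change was just over the fold limit and was not called without 4 h array B (0.58), and it was -0.41 with centred and scaled arrays. The members that fell were the cystine transporter SLC7A11 (-1.24 ± 0.13) and the factor CEBPB (-0.66 ± 0.13), the latter not called without 24 h array C (-0.58). With centred arrays 10 members were higher and 6 lower, and with centred and scaled arrays 8 and 10.

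Of 23 chaperones, enzymes and regulators of the endoplasmic reticulum, 9 (39.1%) were called higher, 0 lower and 14 were not called (median 0.49). The changes of 3 uncalled members were negative, down to -0.40. CRELD2, a secreted disulfide isomerase, went from 8.02, 8.05, 8.07 and 7.87 to 10.04, 9.55 and 9.72 (1.77 ± 0.14, 3.40-fold, adjusted p = 9.81e-05). PDIA4, a protein disulfide isomerase, rose by 1.49 ± 0.13, XBP1, a transcription factor of the unfolded protein response, by 1.47 ± 0.10, HERPUD1, a component of the degradation pathway of this compartment, by 1.30 ± 0.13 and the chaperone subunit SDF2L1 by 0.96 ± 0.16. PDIA3 and MANF were at 0.52 ± 0.10 and 0.52 ± 0.13, under the fold limit, and MANF passed without 24 h array C (0.61). With centred and scaled arrays the list held 4 members higher and 9 lower, PDIA3 among the latter at -0.97.

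Metallothioneins, small proteins that bind zinc and copper, were mostly higher under the main normalization. Of 10 measured members 7 (70%) were called higher and 0 lower, beside 12.1% and 11.2% of all transcript clusters (median 0.83). For 8 of the 10 the arrays of 24 h lay above those of 4 h without overlap, beside 22.7% of all transcript clusters. MT1F had log2 signals of 10.94, 10.79, 10.57 and 11.06 at 4 h and of 12.86, 12.97 and 13.28 at 24 h (2.20 ± 0.16, 4.59-fold, adjusted p = 7.14e-05). The pseudogene MT1IP, which is not on the list, rose by 2.77 ± 0.11 with all arrays of 24 h between 9.98 and 10.14.

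Smaller rises were measured for MT1H (1.38 ± 0.15), MT1E (1.07 ± 0.10), MT1G (0.92 ± 0.10) and MT4 (0.90 ± 0.11). These genes are closely related copies on chromosome 16 whose probes can share transcripts, so the members are not independent. MT2A was at the ceiling of the scale at both times, at 17.86 to 18.01 and at 18.01, and MT3 was not called (0.66 ± 0.24, adjusted p = 0.0634) but passed without 4 h array D (0.83) or 24 h array C (0.92). With centred arrays 4 members were higher and 1 lower, and with centred and scaled arrays 3 and 4, with MT1E at -0.18, MT1G at -0.60 and MT2A at -2.21. MT1F remained higher under both.

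Interferon-stimulated genes, which encode antiviral proteins, rose more often than they fell. Of 32 members 15 rose (46.9%), 4 fell (12.5%) and 13 were not called (median 0.62). MX1, a GTPase that blocks viruses, had log2 signals of 8.82, 8.65, 7.98 and 8.37 at 4 h and of 12.20, 10.60 and 10.77 at 24 h (2.74 ± 0.38, 6.68-fold, adjusted p = 0.00109). IFI44L, an interferon-induced gene whose promoter is shown above, went from 4.18, 3.59, 3.30 and 3.13 to 7.42, 5.74 and 6.10 (2.87 ± 0.40, 7.31-fold, adjusted p = 0.00112). In both genes array A of 24 h stood above the others of its time, and the same array was the highest of 24 h for 26 of the 32 members.

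The list mean per array shows the same array apart. It lay between 7.66 and 7.73 on the 4 h arrays and at 8.64, 8.06 and 8.13 on arrays A, B and C of 24 h. Without array A, 12 members were called higher and 5 lower, with MX1 at 2.23 and IFI44L at 2.37. OAS1, a sensor of double-stranded RNA, was at 6.46 to 6.66 at 4 h and at 9.55, 7.65 and 7.74 at 24 h, and its rise of 1.80 ± 0.41 was 1.18 without this array. OAS2, its relative, rose by 1.84 ± 0.26 and by 1.54 without it. The 4 members that fell were the transcription factor IRF1 (-1.46 ± 0.13), the ADP-ribosyltransferase family member PARP14 (-1.14 ± 0.13), OASL (-0.89 ± 0.17) and IFIT5 (-0.83 ± 0.12). USP18 and IRF9 were not called, at 0.73 ± 0.27 and 0.62 ± 0.28, and USP18 passed without 24 h array B (1.01). What sets this array apart was not tested.

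The next list held BMP ligands, receptors, SMAD proteins, antagonists and the ID genes, which BMP signals switch on. Of its 21 members 9 rose (42.9%) and 1 fell (4.76%), with a median of 0.49. FST, an extracellular antagonist of activin and BMP, had signals of 11.70, 11.90, 12.27 and 11.75 at 4 h and of 13.88, 13.96 and 13.77 at 24 h (1.96 ± 0.15, 3.90-fold). ID2 rose by 1.89 ± 0.12 from 7.90 to 8.19 to 9.82 to 10.04, and ID1 by 1.54 ± 0.12. The ligands moved in opposite directions: BMP4 rose by 1.47 ± 0.16 and BMP2 fell by 1.24 ± 0.19, each with signals below 6. Members called lower numbered 2 without 4 h array B or C or 24 h array A, and 3 without 4 h array D. GDF6, another ligand of the family, which is not on the list, rose by 3.20 ± 0.16 (9.17-fold) from 8.31, 8.18, 7.73 and 7.75 to 11.24, 11.12 and 11.20. ATOH8, a factor of the basic helix-loop-helix class, rose by 2.43 ± 0.17.

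The other rises among the 15 largest of named genes were of genes of diverse function. The ETS factor EHF rose by 2.86 ± 0.29, the kinase TAOK3 by 2.74 ± 0.22, the cell surface protein FLRT3 by 2.72 ± 0.31, KLRG2 by 2.53 ± 0.20, RTL8B by 2.52 ± 0.15, the neuronal surface protein SLITRK6 by 2.50 ± 0.21, MAP3K7CL by 2.47 ± 0.17 and the small GTPase RAB30 by 2.43 ± 0.18. The arrays of 24 h of FLRT3 were the most spread of this set, at 8.58, 9.13 and 7.66, and still lay above the 4 h range of 5.41 to 5.94.

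**Figure D3:**
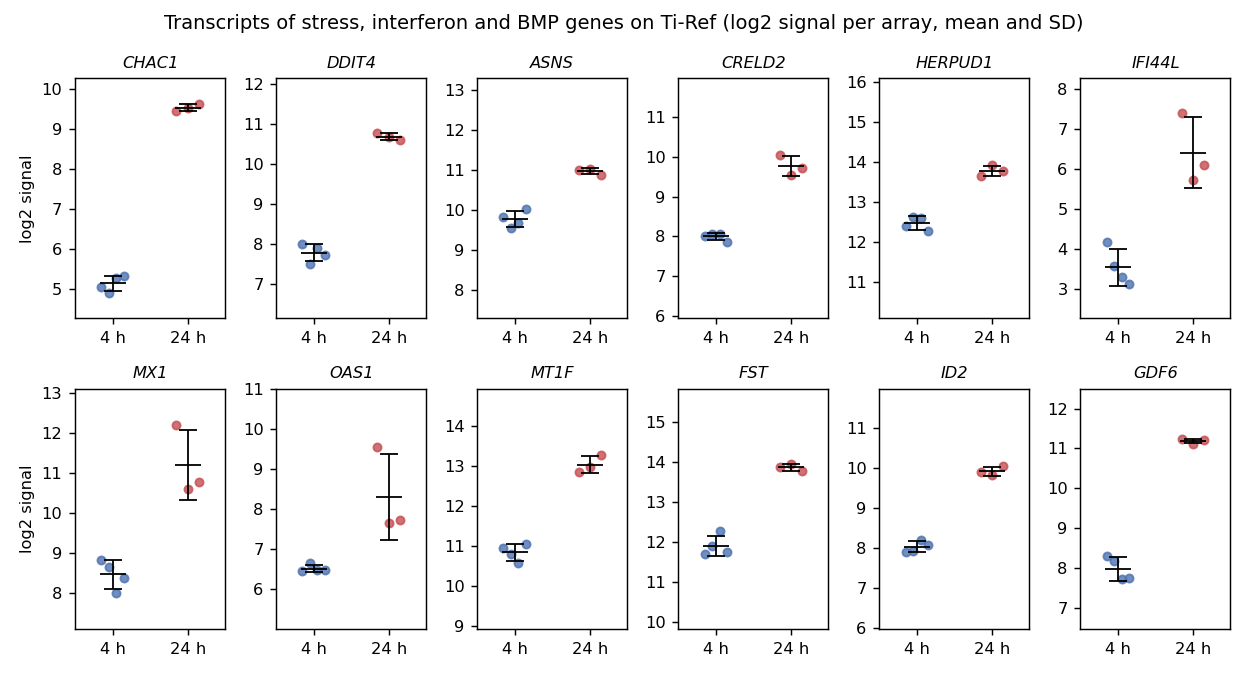
Log2 signal on each array (4 points at 4 h in blue, 3 at 24 h in red) with mean and SD for 12 genes of the ATF4, endoplasmic reticulum, interferon, metallothionein and BMP groups. CHAC1 rises by 4.39, and 1 array of 24 h stands above the others in IFI44L, MX1 and OAS1.

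Cell cycle genes gave no common direction on Ti-Ref. Under the main normalization 12 of 58 genes of G2 and mitosis (20.7%) were higher and 0 lower (median 0.22). However, 4 were higher and 8 lower with centred arrays, and 1 higher and 29 lower with centred and scaled arrays. Without 24 h array A, 1 member was lower. The largest rise was that of the spindle checkpoint kinase BUB1, from 11.06, 11.19, 11.18 and 11.58 to 12.81, 12.65 and 12.57 (1.42 ± 0.15, adjusted p = 0.000293). KIF18A, a motor of the spindle, rose by 0.95 ± 0.15, the cyclin-dependent kinase CDK1 by 0.89 ± 0.13, and BUB1B and INCENP by 0.82 ± 0.11 and 0.82 ± 0.10. The motor proteins KIF20A and CENPE were at 0.58 ± 0.11 and 0.57 ± 0.10, at the fold limit. KIF20A passed without 4 h array C or D or 24 h array A or B (0.59 to 0.62), and CENPE without 24 h array B (0.61).

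Of 45 genes of DNA replication 9 rose (20%) and 3 fell (6.67%), with a median of 0.17. However, 7 rose and 8 fell with centred arrays, and 3 and 16 with centred and scaled arrays. Without 24 h array C, 1 member fell. The helicase subunit MCM4 rose by 1.15 ± 0.10, the single strand binding subunits RPA3 and RPA2 by 1.12 ± 0.15 and 0.80 ± 0.17, and the licensing factor CDC6 by 0.77 ± 0.14, which was -0.15 with centred and scaled arrays. The maintenance methyltransferase DNMT1 fell by 0.83 ± 0.13. Of 20 regulators of entry into S phase, 4 rose (20%) and 1 fell (5%), but 4 and 4 with centred arrays, and 2 and 6 with centred and scaled arrays. Called were the transcription factors E2F7 (1.07 ± 0.13), MYBL2 (1.04 ± 0.11), E2F1 (0.82 ± 0.12) and E2F3 (0.77 ± 0.14) and the kinase CDK2 (-0.59 ± 0.12), which lost its call without 4 h array A (-0.52) or 24 h array B (-0.53).

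Among the 7 measured inhibitors of cyclin-dependent kinases, CDKN1A (p21) stood out. Its log2 signals were 12.65, 12.58, 13.02 and 12.76 at 4 h and 9.97, 10.02 and 10.39 at 24 h, and it fell by 2.62 ± 0.15 (6.16-fold, adjusted p = 3.78e-05). It was also the largest fall of the p53 target list, in which 3 of 21 members rose and 3 fell. These shares, 14.3% each, lay near the 12.1% and 11.2% of all transcript clusters, and 5 members rose without 24 h array C. CDKN2D was called higher at 0.71 ± 0.20 (adjusted p = 0.0231) but not without 4 h array C or 24 h array A, B or C (0.56 to 0.76). CDKN1C (0.48 ± 0.19), CDKN2B (0.42 ± 0.19), CDKN3 (-0.34 ± 0.12), CDKN1B (-0.05 ± 0.16) and CDKN2A (0.00 ± 0.15) were not called, CDKN1C passing without 4 h array D (0.64), and CDKN2A was dim at both times, at 2.99 to 3.52.

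Clock genes drive and follow the daily rhythm of transcription through feedback loops, and the samples of 4 h and 24 h were necessarily taken at different times after seeding. Of 18 measured members 6 rose (33.3%) and 2 fell (11.1%), with a median of 0.31. The output factor HLF rose by 1.31 ± 0.21, the nuclear receptor NR1D2 by 1.24 ± 0.23, the period gene PER3 by 1.21 ± 0.21 and BMAL2 by 0.77 ± 0.10. PER3 was at 7.04, 7.18, 7.84 and 7.01 at 4 h and at 8.58, 8.53 and 8.33 at 24 h, so the groups did not overlap, nor did those of NR1D2, whose 4 h array C (7.98) was the lowest. BHLHE40, a repressor that is itself induced by serum and stress, fell by 1.71 ± 0.26 from 10.29 to 10.86 to 8.41 to 9.47.

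The cryptochromes were called in opposite directions, CRY2 at 0.66 ± 0.20 and CRY1 at -0.59 ± 0.17. CRY2 was not called without 4 h array A or B or 24 h array A, B or C (adjusted p from 0.0541 to 0.118), and CRY1 was not called without 4 h array B or D or 24 h array B or C (adjusted p from 0.0538 to 0.106). NFIL3, a repressor, was called at 0.60 ± 0.15 but not without 4 h array D (0.52) or 24 h array C (0.53). DBP (0.59 ± 0.21) passed without 4 h array B (0.69) and NR1D1 (0.49 ± 0.12) without 24 h array A (0.60), and CLOCK was at 0.41 ± 0.12. BMAL1 (-0.01 ± 0.16), PER2 (-0.03 ± 0.39), RORA (-0.09 ± 0.15), CIART (-0.09 ± 0.13), NPAS2 (-0.25 ± 0.13), TEF (0.17 ± 0.14) and BHLHE41 (0.21 ± 0.19) had overlapping arrays.

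Genes of osteoblast differentiation and mineralization changed in both directions: 4 of 28 (14.3%) rose and 6 (21.4%) fell, beside 12.1% and 11.2% of all, with a median of -0.05. ALPL, the alkaline phosphatase of mineralizing cells, had log2 signals of 4.38, 3.89, 4.55 and 4.03 at 4 h and of 5.79, 5.67 and 5.41 at 24 h (1.40 ± 0.18, 2.65-fold, adjusted p = 0.000786). MGP, an inhibitor of mineralization, rose by 1.17 ± 0.27 with array B of 24 h (6.15) above the others (5.08 and 4.90). IBSP, bone sialoprotein, was dim, at 2.81 to 3.15 and at 3.76 to 3.91 (0.86 ± 0.12), and the fourth gene that rose was ATF4.

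The genes that fell were mostly regulators. RUNX2, the master transcription factor of osteoblasts, went from 6.96, 6.59, 6.53 and 6.56 to 5.55, 5.56 and 5.73 (-1.05 ± 0.14, 2.07-fold, adjusted p = 0.000783). VDR, the vitamin D receptor, fell by 1.09 ± 0.12 from signals over 12, the homeobox factor MSX2 by 1.05 ± 0.16, PHEX by 0.95 ± 0.18 and the Notch target HEY1 by 0.80 ± 0.22, the last not called without 4 h array A (-0.73) or 24 h array B (-0.53). BMP2, above, is also on this list.

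The matrix genes of osteoblasts gave bright signals and changed little under the main normalization. COL1A1, the main chain of collagen I, was at 14.93 to 15.10 at 4 h and at 14.93 to 14.96 at 24 h (-0.03 ± 0.10, adjusted p = 0.863). COL1A2 (0.57 ± 0.10) and the matrix protein SPARC (0.45 ± 0.10) stayed under the fold limit, COL1A2 passing without 4 h array A (0.59) or 24 h array B (0.61), and both reversed with centred and scaled arrays (-1.09 and -1.25). Of the other defining markers SP7 was at 2.84 to 3.35 and SPP1 at 3.38 to 4.51 over both times. BGLAP was not analysed here.

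The remaining members were not called. TNFRSF11B (osteoprotegerin), which restrains osteoclasts, was at 0.09 ± 0.11 (-0.62 with centred arrays and -1.43 with centred and scaled arrays), and its ligand TNFSF11 was at 0.69 ± 0.35 with arrays between 2.82 and 4.82. ANKH (-0.18 ± 0.11), ENPP1 (0.06 ± 0.15), DLX3 (-0.40 ± 0.20), DLX5 (-0.16 ± 0.13), DMP1 (-0.35 ± 0.13), FGF23 (-0.33 ± 0.21), MEPE (0.27 ± 0.36), OMD (0.22 ± 0.19), PHOSPHO1 (-0.27 ± 0.26), PTH1R (-0.07 ± 0.14) and SOST (0.22 ± 0.21) complete the list. DLX3 passed without 24 h array C (-0.61).

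**Figure D4:**
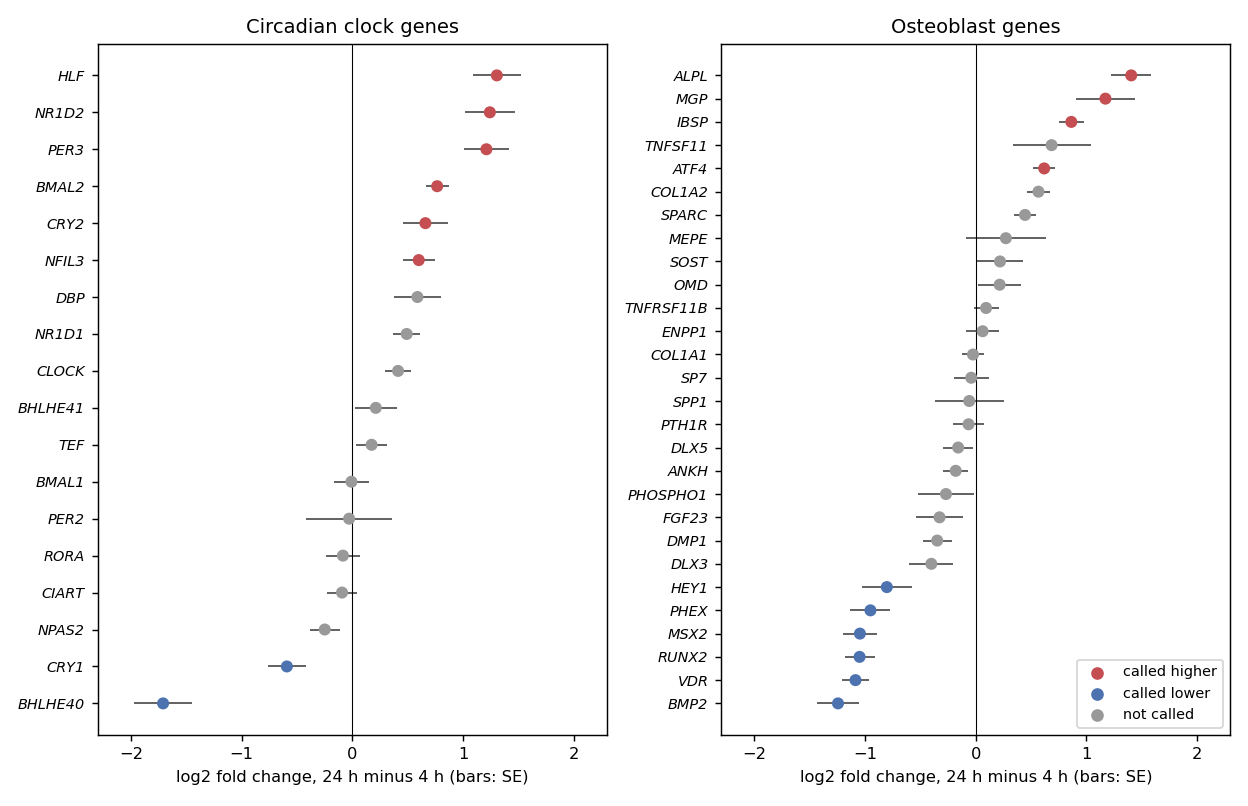
Log2 fold change of 24 h against 4 h on Ti-Ref with its standard error for the 18 measured clock genes (left) and the 28 measured osteoblast genes (right), coloured by call. The clock genes range from -1.71 for BHLHE40 to 1.31 for HLF, and the osteoblast genes from -1.24 for BMP2 to 1.40 for ALPL.

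Genes of attachment and of the cytoskeleton changed in both directions. Of 24 integrin subunits, 6 rose (25%) and 3 fell (12.5%), or 6 and 6 with centred and scaled arrays (median 0.15 under the main normalization). ITGA11, a collagen receptor subunit, rose from 9.64, 9.41, 9.92 and 9.76 to 11.86, 11.90 and 12.02 (2.25 ± 0.14, 4.74-fold, adjusted p = 4.37e-05). ITGB3, of the vitronectin receptor, rose by 1.67 ± 0.15, ITGA8 by 1.60 ± 0.21 and ITGAX, which is known from leukocytes, by 1.30 ± 0.17, while ITGB8 fell by 1.72 ± 0.15. The broadly used subunits ITGB1 and ITGAV were at 0.53 ± 0.10 and 0.43 ± 0.12 and were not called, and ITGB1 was at -1.12 with centred and scaled arrays.

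Of 51 genes of focal adhesions and actin, 7 rose and 3 fell (13.7% and 5.88%, beside 12.1% and 11.2% of all). With centred arrays 7 rose and 14 fell, and with centred and scaled arrays 4 and 33. The adaptor LIMS1 rose by 1.96 ± 0.14, the docking protein BCAR1 by 1.56 ± 0.13, the actin-binding proteins CALD1 and TPM1 by 1.55 ± 0.10 and 1.35 ± 0.13, and CDC42EP3 by 0.98 ± 0.10. CALD1 had very tight groups, at 9.95 to 10.08 and at 11.55 to 11.58. Of 20 targets of YAP and TEAD, which follow cell spreading, 2 rose (10%) and 5 fell (25%), with a median of -0.17. Without 4 h array D or 24 h array A or C, 1 rose. FOXF2 rose by 1.88 ± 0.18, and NUAK2 (-1.67 ± 0.17), AMOTL1 (-1.33 ± 0.16), the matricellular CCN1 (-1.18 ± 0.18) and FJX1 (-0.97 ± 0.14) fell.

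Matrix genes were likewise mixed. Of 25 collagen chains 2 rose (8%) and 5 fell (20%), and 1 rose without 4 h array B or C or 24 h array C. COL27A1 (-1.77 ± 0.17), COL12A1 (-1.12 ± 0.10), COL14A1 (-1.01 ± 0.11) and COL5A3 (-0.99 ± 0.18) fell, and COL8A1 rose (1.02 ± 0.15). Of 34 matricellular, elastic and basement membrane genes, 7 rose (20.6%) and 8 fell (23.5%). The fibulin EFEMP1 rose by 2.32 ± 0.32 and periostin, POSTN, by 1.56 ± 0.21, whereas MFAP5 of the microfibrils (-1.53 ± 0.15), tenascin C, TNC (-1.32 ± 0.16), and CCN4 (-1.29 ± 0.20) fell. POSTN went from 12.73, 12.77, 12.17 and 12.13 to 14.35, 13.74 and 13.95.

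Of 29 proteoglycan and hyaluronan genes, 5 rose (17.2%) and 3 fell (10.3%), but 4 and 7 with centred arrays, and 2 and 10 with centred and scaled arrays. The number that fell was 5 without 4 h array A or 24 h array A and 6 without 4 h array B. Versican, VCAN, rose by 1.98 ± 0.16 (3.95-fold), the hyaluronan synthase HAS3 by 1.65 ± 0.15 and the syndecan SDC3 by 0.89 ± 0.14, and decorin, DCN, fell by 1.57 ± 0.14 and CSPG4 by 1.47 ± 0.19. Of 35 matrix proteases and inhibitors, 4 rose (11.4%) and 6 fell (17.1%), beside 12.1% and 11.2% of all transcript clusters. The plasminogen activator PLAT fell by 2.09 ± 0.13 (4.25-fold) from 12.66 to 12.98 to 10.58 to 10.88, and the membrane protease MMP16 (-1.51 ± 0.13) and the urokinase receptor PLAUR (-1.10 ± 0.21) fell as well. The collagenase MMP1 rose by 1.69 ± 0.21, with array A of 24 h (9.67) above arrays B and C (8.97 and 9.22), and ADAMTS1 by 0.87 ± 0.11, which was -0.01 with centred and scaled arrays.

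The WNT list held ligands, receptors, transducers and antagonists. Of 35 members 10 rose (28.6%) and 3 fell (8.57%), with a median of 0.06. With centred and scaled arrays 7 rose and 6 fell. The members named next had the largest called changes, all of them rises. WNT7B (1.7 ± 0.23) and WNT5B (1.52 ± 0.14) are ligands, DKK1 (1.51 ± 0.14) and DKK2 (1.17 ± 0.27) secreted modulators of WNT receptors, and NKD2 (1.12 ± 0.17) an intracellular antagonist. DKK1 was bright, at 13.40 to 13.73 and at 14.90 to 15.32, without overlap. In the TGF-beta list 6 of 19 rose (31.6%) and 5 fell (26.3%), but 3 and 5 with centred arrays, and 3 and 8 with centred and scaled arrays. The ligands TGFB3 and TGFB1 (-2.62 ± 0.25 and -1 ± 0.10) fell, as did the inhibitor SMAD7 (-1.55 ± 0.14), while SKIL and the co-receptor TGFBR3 rose by 1.18 ± 0.15 and 1.02 ± 0.19.

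Of 20 glycolysis genes 6 rose (30%) and 0 fell, with a median of 0.29. However, 2 rose and 4 fell with centred arrays, and 2 and 11 with centred and scaled arrays. Without 4 h array B, 1 glycolysis gene fell. HK1, a hexokinase, rose by 1.29 ± 0.10, the glucose transporter SLC2A1 by 0.86 ± 0.13 and HK2 by 0.82 ± 0.15. GPI (0.88 ± 0.11) and PGK1 (0.62 ± 0.11) were -0.49 and -0.46 with centred and scaled arrays, and PGK1 was not called without 4 h array B or 24 h array C (0.58 in both). Of 34 genes of oxidative phosphorylation 2 rose (5.88%) and 0 fell, or 1 fell without 4 h array D or 24 h array A. However, 0 rose and 10 fell with centred arrays, and 0 and 24 with centred and scaled arrays. Of 17 targets of NRF2, the factor of the oxidative stress response, 6 (35.3%) fell and 1 (5.88%), TALDO1, rose by 0.81 ± 0.15. The falls included ferritin light chain, FTL (-0.97 ± 0.12), NQO1 (-0.85 ± 0.11), PIR (-0.85 ± 0.20) and ME1 (-0.83 ± 0.11), besides SLC7A11. In lipid synthesis 0 of 11 genes of the fatty acid branch rose and 3 fell (27.3%). Among these FASN fell by 1.31 ± 0.10 and SREBF1 by 1.11 ± 0.12. Of 20 genes of the cholesterol branch 2 rose (10%) and 1 fell (5%), beside 12.1% and 11.2% of all transcript clusters. The genes that rose were INSIG1 (1.21 ± 0.14) and MVD (1.07 ± 0.19). With centred arrays 2 cholesterol genes rose and 2 fell, and with centred and scaled arrays 2 and 4.

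Of 19 genes known to follow FOXO factors and growth factor withdrawal, 7 rose (36.8%) and 4 fell (21.1%), with a median of 0.40. With centred and scaled arrays 4 rose and 6 fell. YPEL3 rose by 2.11 ± 0.17, ARRDC3 by 1.81 ± 0.17 and CITED2 by 0.96 ± 0.13, and CITED2 was -0.07 with centred and scaled arrays. PDK4, a kinase that restrains pyruvate use, fell by 2.40 ± 0.28 from 6.49 to 7.5 to 4.29 to 5.20, and KLF9 fell by 1.57 ± 0.15.

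Housekeeping genes centred on no change under the main normalization (median 0.01), with 2 of 16 higher and 2 lower. These shares, 12.5% each, lay near the 12.1% and 11.2% of all transcript clusters. Without 4 h array A, 4 were higher, and without 4 h array B, 1 was higher. EEF1A1 and PPIA, at 17.47 to 17.66 and at 16.99 to 17.09, were at -0.13 ± 0.09 and -0.06 ± 0.09, POLR2A and TFRC fell by 1.06 ± 0.10 and 1.05 ± 0.13, and HPRT1 rose by 0.80 ± 0.17. With centred arrays 2 were higher and 8 lower, and with centred and scaled arrays 0 and 13. As a gauge of genes without expression in bone cells, chosen after the data had been seen, 349 olfactory receptors gave 4.01% higher and 8.88% lower with a median of -0.06.

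Markers of other cell types were examined in these cultures of a single cell line. Their values are transcript levels and do not count cells of another type. Of 11 markers of blood cells 3 rose (27.3%) and 1 fell (9.09%), and of 9 endothelial markers 3 rose (33.3%). Of 10 epithelial markers 2 fell (20%), and of 8 adipocyte markers 0 were called. Of 9 muscle markers 1 rose and 1 fell (11.1% each), and of 7 neuronal markers 1 rose (14.3%). Over all transcript clusters 12.1% were higher and 11.2% lower, so the muscle and neuronal shares lay near those of all. The mean log2 signal of the blood cell markers was 5.19 to 5.33 at 4 h and 5.44 to 5.72 at 24 h, and that of the endothelial markers 4.12 to 4.28 and 4.59 to 4.77. PTPRC (1.43 ± 0.22), CD79A (1.33 ± 0.19), CD34 (0.89 ± 0.18), TEK (2.11 ± 0.30), CDH5 (1.60 ± 0.16) and CLDN5 (0.90 ± 0.11) rose to at most 7.55, and CD14 fell by 1.38 ± 0.15. Leaving out 1 array moved these counts by at most 1 member. The part of these transcripts in the other results was not tested.

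The change on Ti-Ref was then set beside the change on Ti-TMS-PEI, tested as an interaction over all 15 arrays. At a difference over 1.5-fold and an adjusted p under 0.05, the interaction passed for 1114 transcript clusters, 5.19% of all, with 570 (2.66%) higher and 544 (2.54%) lower in the change on Ti-Ref. Of the 5009 transcript clusters called on Ti-Ref, 414 also passed the interaction, 165 of them with opposite signs of the change on the surfaces. A further 700 passed the interaction without a call on Ti-Ref.

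AKAP12, a scaffold of kinase A, differed most. It rose by 0.99 ± 0.23 on Ti-Ref and by 5.26 on Ti-TMS-PEI, a difference of -4.28 ± 0.50 (limma interaction, adjusted p = 0.000253), and its call on Ti-Ref was lost without 24 h array C (0.845). For MMP1 the changes were 1.69 and 5.66 (difference -3.97 ± 0.24, adjusted p = 8.95e-07), and for the chemokine CCL26 they were 1.78 and 4.63 (-2.85 ± 0.45). These genes thus moved up on both surfaces, and further on Ti-TMS-PEI.

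For the other genes the changes on the surfaces had opposite signs. PTGS2 fell by 2.60 on Ti-Ref and was at 0.34 on Ti-TMS-PEI (difference -2.94 ± 0.21, adjusted p = 4.08e-06), the glycoprotein CHI3L1 was at -1.39 and 1.81 (-3.20 ± 0.35) and RASL12 at -2.04 and 0.90 (-2.94 ± 0.32). KLHL41 and the carbonic anhydrase CA12 were not called on Ti-Ref (-0.31 ± 0.33 and -0.37 ± 0.31) and were at 2.40 and 2.31 on Ti-TMS-PEI, and CA12 passed on Ti-Ref without 24 h array C (-0.80). The pregnancy-specific glycoprotein PSG1 was at 0.44 ± 0.14 and -3.06 (difference 3.50 ± 0.25). The chemokine CXCL10 was at 0.74 ± 0.19 and -2.29 (3.03 ± 0.31), and its call on Ti-Ref was lost without 24 h array A (0.55).

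Mitotic genes were the list with the most differences of the change between the surfaces. The interaction passed for 43 of 58, all in the direction of a higher change on Ti-Ref, beside 2.66% of all transcript clusters. The median difference was 0.87. The median change was 0.22 on Ti-Ref and -0.66 on Ti-TMS-PEI. For the S phase genes 14 of 45 passed, again all in this direction, with medians of 0.17 and -0.46, and for ribosome biogenesis 8 of 34, with medians of -0.16 and -0.70. The interaction passed for 0 of 23 genes of the endoplasmic reticulum and 0 of 10 metallothioneins, beside 5.19% of all transcript clusters in either direction. At that share lists of this size hold few such members, so these counts do not set the lists apart. A difference under the threshold does not show that the surfaces act alike.

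CDKN1A fell by 2.62 on Ti-Ref and was at -0.73 on Ti-TMS-PEI (difference -1.89 ± 0.21, adjusted p = 0.000146). CCL2 fell by 3.64 on Ti-Ref and was at -5.43 on Ti-TMS-PEI, a difference of 1.79 ± 0.25 (adjusted p = 0.000877). For LIF, IL6, CHAC1, DDIT4 and GDF6 the difference did not pass, with values of -0.49 ± 0.18, 0.14 ± 0.28, 1.15 ± 0.36, 0.75 ± 0.26 and 0.27 ± 0.20. Of the interferon-stimulated genes 5 of 32 passed, MX1 among them at 2.74 and 0.57 (difference 2.17 ± 0.48, adjusted p = 0.0153). The difference of MX1 includes array A of 24 h described above.

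**Figure D5:**
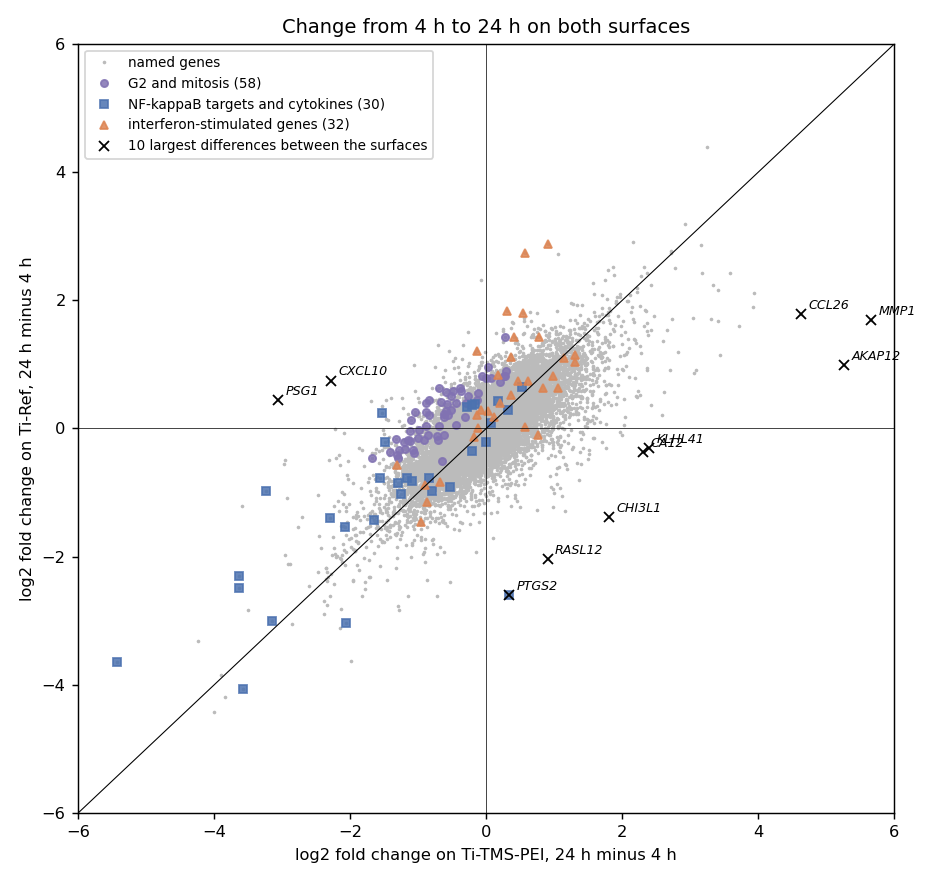
Log2 fold change of 24 h against 4 h on Ti-TMS-PEI (x axis) and on Ti-Ref (y axis) for all named genes (grey), with 3 lists in colour, the 10 largest differences between the surfaces as crosses and the line of equal change. Mitotic genes lie above the line (medians -0.66 and 0.22), and AKAP12, MMP1 and CCL26 lie far below it.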

How the data were processed

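MG-63 RNA was measured on 15 Clariom S arrays. The deposited table holds log2 signals, which the authors made in the Transcriptome Analysis Console by SST-RMA (robust multi-array averaging with a signal space transformation). That this was done separately for each time was inferred from the medians of the arrays. These values were quantile normalized over all 15 arrays. The 7 Ti-Ref arrays were fitted with limma 3.58.1 in R 4.3.3 (lmFit and eBayes) with time as the only term and p-values adjusted by Benjamini-Hochberg over 21448 transcript clusters. The fits were tested on simulated data. An interaction of time and surface was fitted over 15 arrays. Of the transcript clusters, 3739 carried no gene symbol and were tested but not named. Summaries and plots used pandas 2.3.3 and matplotlib 3.10.9.

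Members and gene lists were chosen with earlier results of these data known. Named were the 15 largest rises and 15 largest falls whose arrays did not overlap, up to 5 called and 2 uncalled members of each list, all members of the lists of CDK inhibitors, clock and osteoblast genes, and the 10 largest interactions. CSF3, KLF2, CEBPB, ATF4, PARP14, OASL, IFIT5 and TALDO1, and genes repeated in the comparison of the surfaces, were chosen after their values were seen. Precision is limited by the number of arrays. Alternatives were other scalings, variance models, filters, thresholds, a replicate block and leaving out each array.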

Additional observations from a re-analysis of the deposited data

Results flagged for a closer look

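Of the 239 genes named, 11 had 1 of the 4 arrays of 4 h apart from the other 3 by Dixon's criterion at the 95% level, and chance gives about 1 in 20. The array apart was the highest, at the log2 signal in brackets, for OAS1 (6.66), RUNX2 (6.96), COL1A1 (15.10) and FASN (13.07), and the lowest for IFIT5 (8.97), E2F1 (8.73), ITGB8 (8.63), TFRC (13.32), PPIA (17.02), AKAP12 (6.84) and TNC (10.43). The 24 h group has 3 arrays and was not examined in this way.

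For 68 of the named genes the change from 4 h to 24 h differed between Ti-Ref and Ti-TMS-PEI in the limma interaction. The values in brackets are log2 differences, the change on Ti-Ref minus that on Ti-TMS-PEI. The change on Ti-Ref was the higher for PSG1 (3.50), CXCL10 (3.03), EFEMP1 (2.40), MX1 (2.17), IFI44L (1.97), CCL2 (1.79), ASNS (1.75), FLRT3 (1.66), OAS2 (1.53), CXCL1 (1.28), EPHA2 (1.27) and HAS3 (1.27). It was also the higher for MFAP5 (1.24), CRY1 (1.21), CDKN3 (1.19), RPA3 (1.17), CENPE (1.16), BUB1 (1.14), NRG1 (1.06), HPRT1 (1.06), MYBL2 (1.03), ITGB3 (1.02), KIF20A (0.96) and KIF18A (0.94). Further positive differences were measured for E2F3 (0.94), CCN1 (0.93), HBEGF (0.84), CALD1 (0.84), DKK1 (0.76), CDK2 (0.74), FJX1 (0.73), FST (0.71), SPRY2 (0.68), COL8A1 (0.68), ENPP1 (0.67) and WNT5B (0.66). Smaller positive differences belonged to CLOCK (0.61) and BMAL2 (0.60). The change on Ti-Ref was the lower for AKAP12 (-4.28), MMP1 (-3.97), CHI3L1 (-3.20), PTGS2 (-2.94), RASL12 (-2.94), CCL26 (-2.85), KLHL41 (-2.71), CA12 (-2.68), ITGA8 (-2.12), ID2 (-2.03), COL14A1 (-2.01) and CDKN1A (-1.89). It was also the lower for PDK4 (-1.87), YPEL3 (-1.82), BHLHE40 (-1.80), RAB7B (-1.64), LINC00260 (-1.55), NR4A1 (-1.49), TNC (-1.40), PLAT (-1.19), ID1 (-1.12), DCN (-1.10), ITGA11 (-1.09) and WNT7B (-1.04). Further negative differences were measured for DLX3 (-0.95), ITGB8 (-0.94), TGFB1 (-0.90), TNFRSF11B (-0.80), ANKH (-0.75) and FTL (-0.60).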

How the results depend on the processing

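The counts of higher and lower calls stayed within 1.5 times of 2602 and 2407 with the Ti-Ref arrays normalized alone, cyclic loess, a spread shared over 15 arrays, a trended variance, array weights, a filter on the dimmest 25%, named transcript clusters alone and an adjusted p under 0.01. Lower calls numbered 4639 with arrays centred on their medians and 5623 with arrays centred and scaled. With the deposited values as they stand there were 12043 higher and 310 lower calls, and with a fold change over 2 there were 715 and 777. Leaving out 1 array gave 2260 to 2644 higher and 2115 to 2485 lower calls, and 748 to 1203 interactions against 1114. The cause of these shifts was not tested. Of the 5009 called transcript clusters, 4224 were also called with centred arrays, 4802 with cyclic loess and 3405 in every fit that left out 1 array. Residuals of arrays with the same letter at both times correlated at 0.01, 0.03 and 0.02, so no pairing by letter was seen. Since 1 array of 24 h was excluded in the study, the letters need not match, and this cannot show whether the samples were paired. With the letter as a replicate block there were 2599 higher calls, 2457 lower calls and 1107 interactions.

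Named genes with a call in the main fit or in the alternative changed sign in 3 settings. Changes of sign without a call in either fit are not listed. With centred and scaled arrays the log2 changes were ATF4 -0.41, PDIA3 -0.97, MT1E -0.18, MT1G -0.60, MT2A -2.21, CDC6 -0.15, COL1A2 -1.09, SPARC -1.25, ITGB1 -1.12, ADAMTS1 -0.0081, GPI -0.49, PGK1 -0.46, CITED2 -0.0712 and TNFRSF11B -1.43. With centred arrays they were MT2A -1.15 and TNFRSF11B -0.62. With the deposited values they were CXCL1 0.62, CEBPB 0.26, IFIT5 0.0717, CDKN1B 0.78, CRY1 0.33, BMAL1 0.91, HEY1 0.0633, HBEGF 0.11, PIR 0.0633, NPAS2 0.65 and RORA 0.83. Of the 185 named genes that were called, 172 had the same call in every fit that left out 1 array.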
